A study of Mus musculus with 12 samples.

Results

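The genes of chondroitin sulfate synthesis were examined in L929 cells, an established line of mouse fibroblasts from C3H/An connective tissue. The treatments were plasmid transfection and BX795, an inhibitor of the kinase TBK1. The set was a list of 10 genes looked up by symbol: Csgalnact1, Csgalnact2, Chsy1, Chsy3, Chpf, Chpf2, Chst11, Chst12, Chst15 and Dse. They were chosen by measured values of these same libraries, because as a set they tended to be lower with plasmid than with mock treatment, so the values of pEGFP-N1 against mock are given only as a description. Of the 10 genes, 9 were among the 17571 genes of the expression table, and 8 were among the 10412 genes with at least 1 FPKM (a level scaled to transcript length and to the fragments mapped in the library) in 3 or more of the 12 libraries. Chst11 was in the table but below that level, and Chsy3 was not analysed here.

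Total RNA had been sequenced from 4 groups of 3 libraries. The mock libraries carry the agent label DMSO, the vehicle. The pEGFP-N1 libraries came from cells transfected with a plasmid that encodes green fluorescent protein, and the BX795 libraries from cells given the inhibitor at 0.5 µM. The BX795 plus pEGFP-N1 libraries came from cells given both, with the inhibitor applied 1 h before the plasmid and RNA taken after 6 h of transfection. The treatment note is the same for every library, and whether the mock and BX795 cells received transfection reagent without plasmid is not given in the sources used here. All libraries come from a single cell line, and nothing states that replicates were separate cultures, so the p-values measure only the spread between libraries, which may be technical.

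Chondroitin sulfate is a sulfated sugar chain that fibroblasts attach to core proteins and place on the cell surface and in the matrix. A short linkage region is built on the core protein, an initiating enzyme adds the N-acetylgalactosamine that commits the chain to chondroitin, and polymerases then add glucuronic acid and N-acetylgalactosamine in turn. Sulfotransferases decorate the chain, and an epimerase turns part of its glucuronic acid into iduronic acid, which makes dermatan sulfate. The same linkage region can also carry heparan sulfate, so the initiating enzymes stand at a branch point.

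The fibroblast label was checked first. S100a4 (3821 to 4977 FPKM over the 12 libraries), Vim (1576 to 2101), Col1a1, Col1a2, Col3a1 and Pdgfrb were present in every library, whereas Thy1 (0 to 0.13) and the matrix proteoglycan Dcn (0 to 0.03) were at or near 0. Every marker listed for other cell types was below 1 FPKM, with Cd79a highest at 0.78. Several libraries went against their labels in overall profile. Over all tested genes, 7 of the 12 libraries were nearest to a library of the same label, by the SD of their log2 differences, and 5 were nearest to a library of another label. The library labelled pEGFP-N1 replicate 2 was nearest to BX795 replicate 2 and had Ifit1 at 0 FPKM, where the pEGFP-N1 libraries 1 and 3 had 96.7 and 95.2. The library labelled BX795 plus pEGFP-N1 replicate 1 was nearest to pEGFP-N1 replicate 3 and had Ifit1 at 92.6, against 0.17 and 0.57 in the other two libraries of its group. The library labelled BX795 replicate 1 and BX795 plus pEGFP-N1 replicate 2 were nearest to each other (SD 0.131). BX795 plus pEGFP-N1 replicate 3 was nearest to BX795 replicate 1 but stood apart from every library, with an SD of 0.293 where the nearest of each other library was at 0.119 to 0.142. Results for the genes of the set are given for all 12 libraries. They are also given for the 9 that remain without pEGFP-N1 replicate 2, BX795 replicate 1 and BX795 plus pEGFP-N1 replicate 1. That choice was made after the profiles were seen. For genes of the other pathway lists, only the fit of all 12 is given. BX795 plus pEGFP-N1 replicates 2 and 3 were kept, and without them too that group would have had no library, so the values without the 3 libraries depend on which of the 5 were left out.

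The promoters of 4 genes are shown. In Chst15 and Csgalnact2 every BX795 library was below every mock library, and in Chst12 and Dse every library with both agents was below every BX795 library, although none of these differences passed an adjusted p under 0.05 in the fit of all 12 libraries. Csgalnact1, which had the smallest p with BX795, had no promoter entry. Each runs from 250 bases before to 50 after a RefSeq transcript start (GRCm38.p6), 5′ to 3′ on the gene's strand. Capitals mark the GC box GGGCGG or its reverse complement.
Chst15 (chr7:132317179-132317478, - strand): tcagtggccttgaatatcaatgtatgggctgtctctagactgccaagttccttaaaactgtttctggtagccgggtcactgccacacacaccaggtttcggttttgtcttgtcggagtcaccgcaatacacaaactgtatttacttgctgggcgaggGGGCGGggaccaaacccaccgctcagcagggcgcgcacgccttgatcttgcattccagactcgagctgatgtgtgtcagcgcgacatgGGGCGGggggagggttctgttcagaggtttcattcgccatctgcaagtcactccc
Csgalnact2 (chr6:118139091-118139390, - strand): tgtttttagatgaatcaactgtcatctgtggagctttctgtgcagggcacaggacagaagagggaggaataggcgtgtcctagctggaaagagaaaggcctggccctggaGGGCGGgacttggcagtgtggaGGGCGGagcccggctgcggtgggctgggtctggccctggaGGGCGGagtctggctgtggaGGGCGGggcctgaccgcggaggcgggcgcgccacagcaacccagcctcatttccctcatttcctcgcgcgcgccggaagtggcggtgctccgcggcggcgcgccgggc
Chst12 (chr5:140505359-140505658, + strand): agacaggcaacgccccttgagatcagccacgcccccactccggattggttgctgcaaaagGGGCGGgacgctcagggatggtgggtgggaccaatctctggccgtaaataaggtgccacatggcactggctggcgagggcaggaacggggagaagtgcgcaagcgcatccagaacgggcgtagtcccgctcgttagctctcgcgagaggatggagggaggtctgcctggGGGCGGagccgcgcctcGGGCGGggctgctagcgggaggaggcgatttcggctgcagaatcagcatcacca
Dse (chr10:34207186-34207485, - strand): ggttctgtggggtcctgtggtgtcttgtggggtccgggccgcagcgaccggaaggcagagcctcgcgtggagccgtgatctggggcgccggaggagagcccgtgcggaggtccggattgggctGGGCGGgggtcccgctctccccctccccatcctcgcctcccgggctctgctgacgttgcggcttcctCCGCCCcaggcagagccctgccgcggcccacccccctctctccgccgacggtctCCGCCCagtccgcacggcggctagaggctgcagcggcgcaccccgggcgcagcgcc
The Csgalnact2 promoter held 4 such matches, Chst12 and Dse 3 each and Chst15 2. A second start of Csgalnact2 had none, and one of Chst15 had 2. Of the 32851 promoters in the RefSeq table, 35.7% held at least 1. The promoters of the 8 genes with an entry were 55.0 to 75.3% G and C, beside a median of 52.7% for all promoters. Whether this base content gives the matches was not tested. Of the 9 genes in the expression table, 8 had a promoter entry, and those of Chpf (2 matches), Chsy1 (2) and Chst11 (3) also held the GC box while that of Chpf2 did not. The Csgalnact2 promoter shown also held 1 match to the interferon-stimulated response element, searched as GAAA and GAAA with any 2 bases between them, and 1 to the AP-1 element TGANTCA, against 3.44% and 7.81% of all promoters. The Chsy1 promoter held 1 E-box CACGTG (7.15% of all promoters), and TATAAA was in no promoter of the 8 genes (13.6% of all). Each was searched on both strands, and no other promoter of the 8 genes held these elements. The cyclic AMP response element TGACGTCA was found 2 times in the Chpf promoter, against 1.79% of all promoters with at least 1. The matches describe letters in the window and say nothing of factor binding.

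Levels in mock cells spanned a wide range on the FPKM scale, which is per transcript length. Chpf, a partner protein of the polymerase, was highest at 40.0 ± 1.93 FPKM (SD, n = 3). The polymerase Chsy1 followed at 16.6 ± 0.471 and the initiating enzyme Csgalnact2 at 13.6 ± 0.306. Below them stood the sulfotransferase Chst12 (10.4 ± 0.781) and the second initiating enzyme Csgalnact1 (9.88 ± 0.592), which overlapped between libraries. The epimerase Dse (8.10 ± 0.495) and the sulfotransferase Chst15 (7.35 ± 0.400) also overlapped, and Chpf2, another polymerase family member, was at 1.5 ± 0.189. Chst11, a sulfotransferase of the same family as Chst12, was listed at 0 FPKM in 10 libraries and at 0.01 in mock replicate 2 and BX795 plus pEGFP-N1 replicate 1. Of the pair Chst11 and Chst12, L929 cells therefore showed RNA of Chst12 at a measurable level. The order from Chpf through Chsy1 to Csgalnact2 was the same in all 4 groups, and Chst15 and then Chpf2 were the lowest of the 8 tested genes in each.

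**Figure D1:**
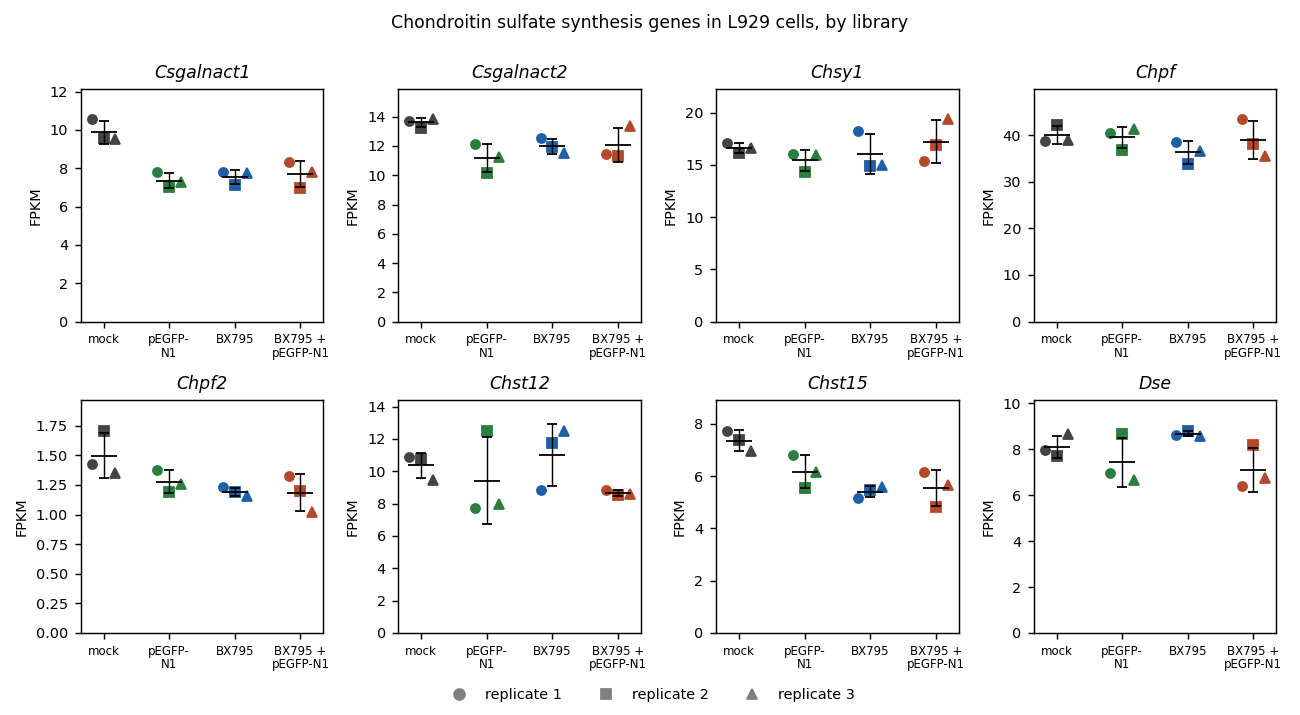
Expression in FPKM (y axis, from 0) of the 8 tested chondroitin sulfate genes in each library, by group (x axis). Points are libraries, the bar and whiskers are the mean ± SD (n = 3). For Csgalnact1 and Chst15 all 9 libraries outside mock lie below all 3 mock libraries, and for Chst12 pEGFP-N1 replicate 2 (12.52) lies far above its group.

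Csgalnact1, lower in every group than in mock, transfers the first N-acetylgalactosamine to the linkage region (GRCm38 chr8:68356781-68735146, − strand, GENCODE vM21). Its values were 10.56, 9.56 and 9.51 FPKM in mock and 7.79, 7.13 and 7.73 with BX795. The plasmid libraries had 7.79, 7.0 and 7.29, and those with both agents 8.33, 6.96 and 7.81. Every library outside mock was thus below every mock library, and the 3 other groups overlapped one another. Relative to mock, BX795 alone had a log2 fold change of -0.35 (SE 0.080, 95% interval -0.52 to -0.17), with an unadjusted p of 0.00103 and an adjusted p of 0.145 by limma. Without the 3 libraries the difference was -0.37 and the adjusted p by limma was 0.00905. With BX795 already present, adding the plasmid gave a difference of 0.02 (interval -0.15 to 0.20), and with the plasmid present, adding BX795 gave 0.06 (-0.12 to 0.23). Plasmid against mock, described only, was -0.38.

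Csgalnact2, which has the same initiating activity (chr6:118107452-118139140, − strand), differed less with BX795. Its values were 13.74, 13.26 and 13.83 FPKM in mock, 12.54, 11.91 and 11.51 with BX795, 12.11, 10.16 and 11.27 with plasmid, and 11.43, 11.33 and 13.39 with both. The BX795 and plasmid groups each lay wholly below mock, but the third library with both agents reached the mock range. BX795 against mock was -0.17 (SE 0.082, interval -0.35 to 0.01), with an adjusted p of 0.371 by limma, and without the 3 libraries it was -0.20 (adjusted p 0.0776). Plasmid against mock, described only, was -0.27, and without the 3 libraries -0.20. Adding plasmid to BX795 gave 0.00 (-0.17 to 0.18), and adding BX795 to plasmid gave 0.10 (-0.08 to 0.28).

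None of the polymerases had an unadjusted p under 0.05 in the fit of all 12 libraries by limma. Chsy1, the enzyme that adds both sugars of the repeat (chr7:66109515-66173798, + strand), had 17.11, 16.17 and 16.59 FPKM in mock, 18.21, 14.87 and 14.99 with BX795, 16, 14.30 and 15.99 with plasmid and 15.33, 16.95 and 19.38 with both. Its BX795 libraries lay on both sides of mock, its plasmid libraries were all below mock, and its widest spread was with both agents. BX795 against mock was -0.06 (interval -0.27 to 0.16) by limma, plasmid added to BX795 was 0.10 (-0.11 to 0.31), and BX795 added to plasmid was 0.14 (-0.07 to 0.36). Without the 3 libraries, plasmid added to BX795 gave 0.26 for Chsy1 (unadjusted p 0.00395, adjusted p 0.0543 by limma), with the library at 19.38, the one that stood apart from all others, as 1 of the 2 with both agents. Leaving out that library alone took the difference from 0.10 to 0.014, and that of BX795 added to plasmid from 0.14 to 0.061. For BX795 against mock, Chsy1 was at -0.15 without the 3 libraries (adjusted p 0.128) and at -0.0076 without BX795 replicate 2 alone.

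Chpf (chr1:75474569-75479307, − strand) had 38.84, 42.23 and 38.93 FPKM in mock and 38.56, 33.75 and 36.60 with BX795. It had 40.44, 36.87 and 41.22 with plasmid, and 43.42, 38.01 and 35.52 with both. The BX795 libraries were below mock by a narrow gap of 38.56 to 38.84, and the other groups overlapped mock. The difference with BX795 was -0.14 (SE 0.083, interval -0.32 to 0.04), with an adjusted p of 0.457 by limma, -0.18 without the 3 libraries (adjusted p 0.0540), and -0.087 without BX795 replicate 2 alone. Plasmid added to BX795 gave 0.10 (-0.08 to 0.28) for Chpf, with 0.019 without replicate 1 and 0.16 without replicate 3 of the libraries with both agents. BX795 added to plasmid gave -0.02 (-0.20 to 0.16) for Chpf, or -0.15 without pEGFP-N1 replicate 2 and BX795 plus pEGFP-N1 replicate 1. Chpf2 (chr5:24586741-24594556, + strand) was low throughout, at 1.43, 1.71 and 1.35 in mock, 1.23, 1.19 and 1.16 with BX795, 1.38, 1.19 and 1.26 with plasmid and 1.33, 1.2 and 1.02 with both. Its BX795 libraries were all below mock, with a log2 difference of -0.18 (-0.39 to 0.02) and an adjusted p of 0.399 by limma, -0.20 without the 3 libraries (adjusted p 0.174), and -0.30 with a pseudocount of 0.1. For Chpf2, plasmid added to BX795 gave -0.0089 (-0.22 to 0.20) and BX795 added to plasmid -0.06 (-0.27 to 0.14). The value of Chpf2 is uncertain, because 44.1% of its exonic bases overlap Smarcd3 on the opposite strand or Mir671, and the sources used here do not give the strand of the libraries.

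Chst15, a sulfotransferase, adds a further sulfate to an already sulfated N-acetylgalactosamine, which gives the highly sulfated form called chondroitin sulfate E (chr7:132235780-132317228, − strand). Chst15 had 7.74, 7.37 and 6.94 FPKM in mock and 5.17, 5.45 and 5.60 with BX795. With plasmid it had 6.82, 5.53 and 6.16, and with both agents 6.15, 4.82 and 5.66. All libraries outside mock were below mock, narrowly so for plasmid replicate 1. BX795 against mock was -0.38 (SE 0.094, interval -0.59 to -0.18), with an unadjusted p of 0.00170 and an adjusted p of 0.167 by limma, and -0.35 without the 3 libraries (adjusted p 0.0143). Plasmid against mock, described only, was -0.22, and without the 3 libraries -0.16. Plasmid added to BX795 gave 0.03 (-0.18 to 0.23), and BX795 added to plasmid gave -0.13 (-0.34 to 0.07), or -0.27 without the 3 libraries (unadjusted p 0.0158, adjusted p 0.0598) and -0.051 without BX795 plus pEGFP-N1 replicate 2 alone. Of the exonic bases of Chst15, 17.9% overlap Gm10584 on the other strand, and 17.4% of its 31-base words occur in transcripts of other genes, so the way reads were shared can affect its level.

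Chst12, which sulfates N-acetylgalactosamine in chondroitin and dermatan chains (chr5:140505550-140525724, + strand), had another pattern. Its values were 10.86, 10.76 and 9.46 FPKM in mock, 7.75, 12.52 and 7.95 with plasmid, 8.86, 11.72 and 12.50 with BX795. With both agents they were 8.85, 8.53 and 8.59. The 3 libraries left out of the second fit included the highest pEGFP-N1 library and the lowest BX795 library. All libraries with both agents were below all BX795 libraries (8.85 against 8.86 at the closest), and the difference was -0.30 (SE 0.159, interval -0.65 to 0.04, adjusted p 0.604 by limma). Without the 3 libraries it was -0.45 (adjusted p 0.0169), which rests on 2 libraries a group. BX795 against mock was 0.07 (-0.28 to 0.42), or 0.21 without the 3 libraries (unadjusted p 0.0160, adjusted p 0.0606), and -0.018 without BX795 replicate 3 alone. Plasmid against mock, described only, was -0.15, with -0.36 without the 3 libraries and -0.044 without pEGFP-N1 replicate 1 alone, and BX795 added to plasmid gave -0.08 (-0.43 to 0.27), or 0.11 without them.

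Dse, the epimerase that converts glucuronic acid to iduronic acid (chr10:34151393-34207715, − strand), shared that pattern in part. It had 7.96, 7.69 and 8.65 FPKM in mock, 6.97, 8.67 and 6.67 with plasmid, 8.64, 8.82 and 8.59 with BX795. With both agents it had 6.39, 8.19 and 6.74. The BX795 libraries were close together and at the top of the mock range, and all libraries with both agents were below them. Plasmid added to BX795 gave -0.26 (SE 0.104, interval -0.49 to -0.04), with an unadjusted p of 0.0268 and an adjusted p of 0.604 by limma. Without the 3 libraries it was -0.20 (unadjusted p 0.0554, adjusted p 0.191). Leaving out any 1 of the BX795 libraries, or replicate 1 or 3 with both agents, also took the unadjusted p of Dse above 0.05 (0.0511 to 0.101). BX795 against mock was 0.09 (-0.14 to 0.32), and BX795 added to plasmid was -0.06 (-0.28 to 0.17). Plasmid against mock, described only, was -0.12, with -0.22 without the 3 libraries and -0.050 without pEGFP-N1 replicate 3 alone. In these bulk libraries, fewer cells that express a gene and less RNA of it per cell cannot be told apart.

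**Figure D2:**
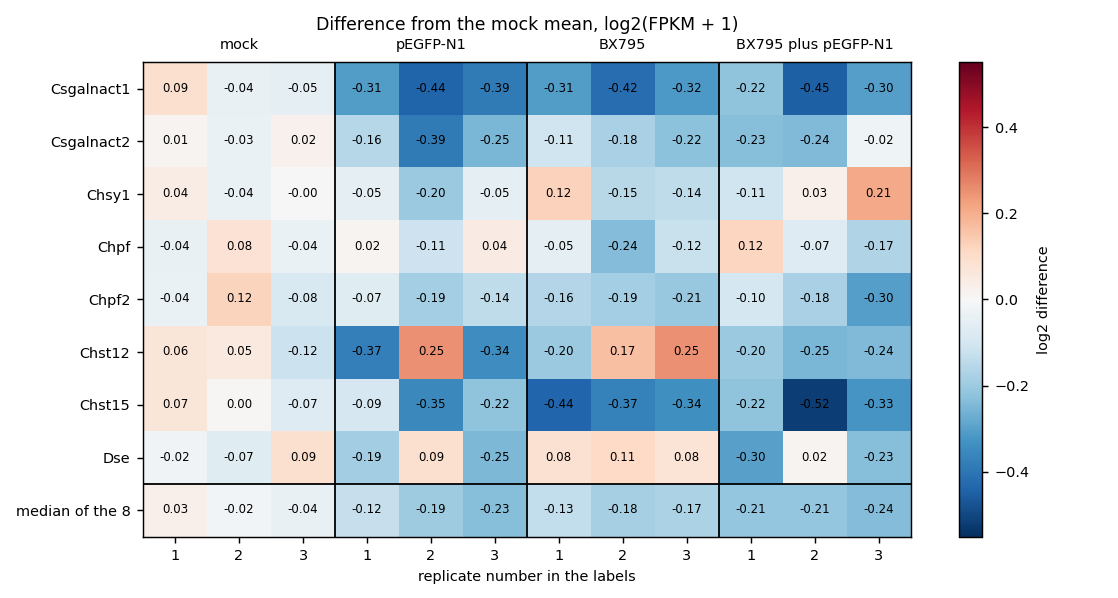
Difference of each library (columns, with the replicate number of its label) from the mock mean on the log2(FPKM + 1) scale, for the 8 tested genes and, in the bottom row, the median of the 8. Blue is lower and red higher. Csgalnact1, Csgalnact2, Chpf2 and Chst15 are below 0 in all 9 libraries outside mock. For Csgalnact2 the value in BX795 plus pEGFP-N1 replicate 3 is only -0.02. Chst12 is red in pEGFP-N1 replicate 2 and in BX795 replicates 2 and 3.

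The question of whether BX795 alone did what the plasmid did was read gene by gene. Both comparisons use the same 3 mock libraries, which also served to choose the genes, so a high value in mock lowers both, and BX795 against mock is no independent check. With BX795 alone, 2 of the 8 genes (Csgalnact1 and Chst15) were lower at an unadjusted p under 0.05, against 5.40% of all tested genes, and 0 passed an adjusted p under 0.05 by limma, against 0.0672% of all tested genes. The BX795 libraries were wholly below mock for 5 of the 8 (Csgalnact1, Csgalnact2, Chpf, Chpf2 and Chst15), against 16.2% of all tested genes, and wholly above it for 0, against 23.6%. The median log2 fold change of the 8 was -0.15, beside 0.03 for all tested genes. With plasmid, as the rule had it, all 8 differences from mock were negative, with a median of -0.14, and the plasmid libraries were wholly below mock for 4 of the 8 (Csgalnact1, Csgalnact2, Chsy1 and Chst15), beside 7.41% of all tested genes. Csgalnact1, Csgalnact2 and Chst15 were thus wholly below mock in both groups, Chpf and Chpf2 with BX795 only, Chsy1 with plasmid only, and Chst12 and Dse in neither. Whether any gene differed between the plasmid and the inhibitor was not tested. Csgalnact1 and Chst15 were also below every mock library in all 9 other libraries, as were 232 (2.23%) of the 10412 tested genes. The 9 include the pEGFP-N1 libraries that, with mock, served to choose the genes, so this count is a description only.

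The count with BX795 depended on the libraries and on the spread used. With only the mock and BX795 groups in the fit, 4 genes were lower at an unadjusted p under 0.05 (14.6% of all tested genes), and 3 at an adjusted p under 0.05 by limma (7.97%): Csgalnact1 (0.00662), Chst15 (0.00427) and Csgalnact2 (0.0481). Without pEGFP-N1 replicate 2 and BX795 plus pEGFP-N1 replicate 1, which belong to neither group, 4 were lower at an unadjusted p (11.7%) and 2 at an adjusted p (5.16%). Without BX795 replicate 1 as well, 5 were lower at an unadjusted p (14.6%) and 2 at an adjusted p (9.28%), and Chst12 was higher at an unadjusted p, against 22.3% of all tested genes. In both of the last fits the 2 genes were Csgalnact1 and Chst15.

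The comparison of BX795 plus pEGFP-N1 with BX795 sets libraries labelled with both agents against those labelled with the inhibitor alone. Whether TBK1 was inhibited in each of them was not measured. The difference itself uses none of the libraries that chose the genes, although the spread behind its p-values was estimated over all 12. Here Dse alone of the 8 was lower at an unadjusted p under 0.05, against 3.60% of all tested genes, and Dse and Chst12 were wholly lower, against 6.66%. The median was 0.01 for the 8 and -0.02 for all tested genes, and the sign for the 8 turned without the 3 libraries (-0.027). By limma 0 of the 8 passed an adjusted p under 0.05, as did 0% of all tested genes. Without the 3 libraries, Chst12 was the gene lower at an unadjusted p (16.2% of all tested genes) and at an adjusted p under 0.05 (3.76%), and Chsy1 was higher at an unadjusted p, against 11.2% of all tested genes. The comparison of BX795 plus pEGFP-N1 with pEGFP-N1 asks what the inhibitor adds to transfection. Its pEGFP-N1 libraries also served to choose the genes, as low with plasmid, so it is no independent check either. In it the groups overlapped for all 8 genes, where they were wholly lower for 1.41% and wholly higher for 1.39% of all tested genes. None of the 8 had an unadjusted p under 0.05 (0.845% of all tested genes were lower and 0.749% higher at that level), and 0 passed an adjusted p by limma (0% of all genes). Without the 3 libraries, Chpf and Chst15 were lower at an unadjusted p under 0.05, against 16.1% of all tested genes, and Chsy1 was higher (0.17, adjusted p 0.101 by limma), against 22.8%.

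**Figure D3:**
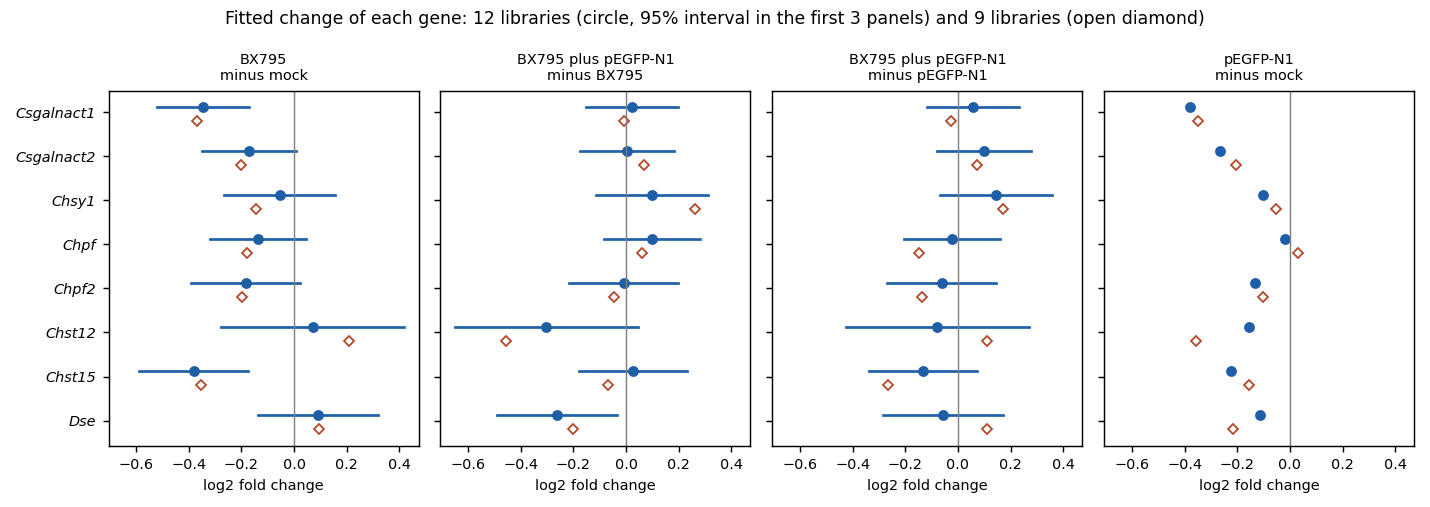
Fitted log2 fold change (x axis, log2(FPKM + 1) scale) of the 8 genes in the 4 comparisons. Circles are the fit of all 12 libraries, with 95% intervals as lines except for pEGFP-N1 minus mock, which chose the genes, and open diamonds are the fit of 9 libraries. With BX795 against mock, the intervals of Csgalnact1 (-0.52 to -0.17) and Chst15 (-0.59 to -0.18) lie below 0.

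The other steps of the pathway were looked up from lists chosen with earlier results of these data known. In BX795 against mock, 0 genes of any of these lists passed an adjusted p under 0.05 by limma. For the linkage region, 6 of 7 genes were tested, 0 had an unadjusted p under 0.05 (8.45% of all tested genes were higher at that level), and the median was 0.12. B3gat3 (0.16, adjusted p 0.489), which adds the glucuronic acid that ends the linkage region, and B4galt7 (0.11, adjusted p 0.493), a galactosyltransferase, had the smallest p-values of that list. Of the 6 linkage genes 5 had positive differences and 1 a negative one, and of the 8 synthesis genes 2 were positive and 6 negative, beside 5924 positive and 4488 negative of all 10412 tested genes.

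Of 6 further modifying enzymes, 3 were tested, all with negative differences. Dsel, a relative of Dse, had 4.82, 4.67 and 5.08 FPKM in mock and 4.09, 3.9 and 3.83 with BX795, a difference of -0.25 (SE 0.075, unadjusted p 0.00672, adjusted p 0.244 by limma). Its BX795 libraries were thus wholly below mock, as for 16.2% of all tested genes, while those of Dse were not. With plasmid Dsel had 4.58, 3.99 and 4.24, and with both agents 4.09, 3.69 and 3.96. Every library outside mock was thus below every mock library, as for Csgalnact1, Chst15 and 2.23% of all tested genes. Chst14, the dermatan sulfotransferase, differed by -0.19 (adjusted p 0.444), and Chst13, another chondroitin sulfotransferase, by -0.43 (interval -0.99 to 0.12, adjusted p 0.446), a larger difference than that of Chst15 with a wider interval. Chst13 was named after its value was seen.

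Of 13 genes that supply sugar nucleotides and the sulfate donor, 11 were tested and 0 had an unadjusted p under 0.05. Of all tested genes, 5.40% were lower and 8.45% higher at that level. In this list and those that follow, 0 calls among so few genes do not show that a step was unchanged. The median of the 11 supply genes was 0.00, with Uxs1, which makes UDP-xylose, at -0.13 (adjusted p 0.376). Of 20 heparan sulfate enzymes 9 were tested, 0 at an unadjusted p under 0.05, with a median of -0.03. Ext1, a heparan polymerase, differed by 0.11 (adjusted p 0.485), and Ndst1, which starts its sulfation, by -0.15 (adjusted p 0.449). All 10 breakdown enzymes were tested, 0 at an unadjusted p under 0.05, with a median of 0.06 and values of -0.39 for the hyaluronidase Hyal1 (adjusted p 0.487) and 0.15 for the iduronidase Idua (adjusted p 0.495).

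Of 13 core proteins that carry these chains, 5 were tested, and Cspg4, a transmembrane chondroitin sulfate proteoglycan, had the smallest p-value. Cspg4 had 58.54, 61.68 and 60.17 FPKM in mock, 42.66, 43.78 and 40.98 with BX795, 53.33, 41.70 and 59.44 with plasmid, and 56.36, 39.34 and 44.92 with both. All BX795 libraries were below all mock libraries, with a difference of -0.49 (SE 0.133, unadjusted p 0.00323, adjusted p 0.205 by limma). The low plasmid library was the one labelled pEGFP-N1 replicate 2, and the high one with both agents was the one labelled replicate 1. Cd44, a surface receptor that can carry chondroitin sulfate, differed by -0.19 (adjusted p 0.660).

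When the plasmid was added to BX795, 0 genes of these pathway lists passed an adjusted p under 0.05 by limma, and 4 had an unadjusted p under 0.05, 3 higher and 1 lower (1.96% and 3.60% of all tested genes), named here after their values were seen. Slc35d1, a transporter of nucleotide sugars into the secretory pathway, had 3.34, 3.77 and 3.23 FPKM with BX795 and 4.6, 3.91 and 4.18 with both agents, a difference of 0.23 (adjusted p 0.604 by limma). Bpnt1, a phosphatase of the sulfate donor's by-product, differed by 0.23 and the hyaluronidase family member Hyal3 by 0.25, while the small matrix proteoglycan Bgn differed by -0.21. When BX795 was added to the plasmid, 0 genes of these lists had an unadjusted p under 0.05, and 0 an adjusted one by limma. Of all tested genes, 0.845% were lower and 0.749% higher at that unadjusted level.

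**Figure D4:**
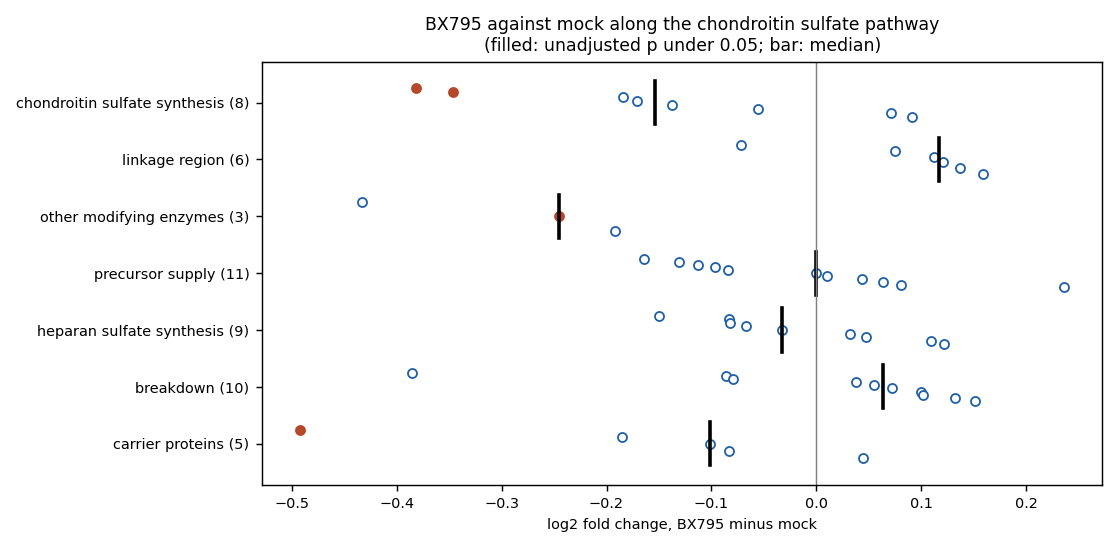
Log2 fold change of BX795 against mock (x axis) for each tested gene of the lists along the pathway (rows, with the number tested). Filled points have an unadjusted p under 0.05 (Csgalnact1, Chst15, Dsel and Cspg4), and the vertical bars are medians, at -0.15 for the synthesis genes and 0.12 for the linkage region.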

How the data were processed

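RNA from 12 L929 libraries had been sequenced on a BGISEQ-500. According to the study's methods and the submitters' processing notes, the authors aligned reads with Bowtie2 2.2.5 to GRCm38.p5 and estimated expression with RSEM, and the deposited table holds FPKM rounded to 2 decimals. Read totals are unknown: FPKM keeps none, and only 34.7% of 395 low values were within 0.1 of a whole multiple of the smallest, so no counting interval is given. The summed FPKM was 467348 to 513761 per library, and 0 of 66 library pairs were identical. Symbols were assigned by Entrez Gene ID from RefSeq (17450 of 17571).

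limma 3.58.1 (R 4.3.3) was fitted to log2(FPKM + 1) with 4 group means and a variance trend, over the 10412 genes with at least 1 FPKM in 3 libraries, with Benjamini-Hochberg adjustment over all of them. Fold changes on this scale understate low genes. An exact permutation test of 3 against 3 could not go below 0.1 and was not used. Alternatives were a pseudocount of 0.1, no filter, rescaling to TPM, division by the 75th percentile, limma without the trend, the compared groups alone, a replicate block, and leaving out libraries. The 2 genes of each pathway list with the smallest p in BX795 minus mock were named, except 1 that is not reported here. The members and lists were chosen with earlier results of these data known. Whether replicate numbers pair the libraries was not settled. Deviations from the group means correlated at -0.39 to 0.63 over 18 same-number pairs, with 6 above 0.1. Pairs with different numbers were not computed.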

Additional observations from a re-analysis of the deposited data

How the results depend on the processing

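In BX795 against mock, the median log2 fold change of the 8 genes was negative in all 21 alternatives, from -0.19 to -0.11, and these bounds came from leaving out single libraries. Csgalnact1 (-0.38 to -0.30) and Chst15 (-0.44 to -0.35) had an unadjusted p under 0.05 in all 21, with limma's adjusted p from 0.00662 to 0.576 and from 0.00427 to 0.582. The 2 genes lower at an unadjusted p became 4 with only the compared groups, 4 without pEGFP-N1 replicate 2 and BX795 plus pEGFP-N1 replicate 1, and 5 without BX795 replicate 1 as well. The count at an adjusted p went from 0 to 3, 2 and 2 in these fits. Of all tested genes, 14.6%, 11.7% and 14.6% were lower at an unadjusted p, and 7.97%, 5.16% and 9.28% at an adjusted p. For BX795 plus pEGFP-N1 against BX795, 1 gene was lower at an unadjusted p. The count became 2 with only the compared groups (4.54% of all tested genes) and 2 without the 2 libraries (9.03%). It was 0 to 2 when 1 library was left out. The median in this comparison was -0.035 without 2 and -0.027 without 3 libraries and -0.035 to 0.064 with 1 left out. The count at an adjusted p was 1 without 3 libraries, where 3.76% of all tested genes were lower at that level. For BX795 plus pEGFP-N1 against pEGFP-N1, the median was 0.022 without 2 or 3 libraries and -0.044 to 0.031 with 1 left out. The count lower at an unadjusted p was 1 without 2 libraries (14.6% of all tested genes) and 2 without 3 (16.1%). For pEGFP-N1 against mock, the median was -0.19 with a pseudocount of 0.1, -0.18 without 2 or 3 libraries and -0.19 to -0.13 with 1 left out. The cause of these shifts was not tested. With the replicate block, the numbers of genes lower at an unadjusted p were 2, 1 and 0 in the 3 tested comparisons, as without it, and limma's adjusted p was 0.0877 for Csgalnact1 and 0.115 for Chst15. The libraries share only a number. Depth is unknown, so how precisely a low gene such as Chpf2 was measured cannot be given.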
